A study of Homo sapiens with 3 samples.

Results

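The chromosome 19 microRNA cluster was followed through 120 guides of a pooled CRISPR knockout library, out of 62916 guides in all. The guides were chosen by target name alone: every guide against hsa-mir-498, hsa-mir-1283, hsa-mir-1323 or any of hsa-mir-512 through hsa-mir-527, with any suffix. They target 47 microRNA hairpins. The rule uses no measured value, though it was chosen with earlier results of these data known. The cells were NUGC3, an established human gastric cancer line that carried a GeCKO library, in which a guide RNA directs the nuclease Cas9 to cut one chosen place. Counting the guides in the cells' DNA shows how common each cut is in the culture. There were 3 libraries, 1 per condition: DMSO at day 0, the solvent DMSO at day 14, and 10 nM RTX at day 14. All carried the same guide library, RTX is not spelled out in the labels, and a treatment note calls the day 0 group treated for 14 days, so the sample titles were followed. With 1 library per condition no difference has a replicate check, and none was tested between conditions.

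MicroRNAs are short RNAs cut from a hairpin precursor, first by DROSHA with DGCR8 in the nucleus and then by DICER1 in the cytoplasm. An Argonaute protein holds the mature strand, whose seed, bases 2 to 8 from the 5′ end, pairs with target messages and lowers their output. The chromosome 19 cluster is a primate-specific array of near-identical hairpins that arose by duplication. It is imprinted, is known mainly for expression in placenta and in pluripotent cells, and is silent in most adult tissues. A guide pairs over 20 bases with a site followed by the letters NGG, so a guide that matches several copies can cut at several places of the array. The deposited tables name each guide by target and library number, and guide sequences were not analysed here.

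The name rule gathered 2 loci. Gene records of RefSeq (GRCh38.p14) placed 41 of the 47 hairpins, with 105 guides, on chromosome 19. The other 6 hairpins, with 15 guides, lie on chromosome X: hsa-mir-513a-1, hsa-mir-513a-2, hsa-mir-513b, hsa-mir-513c, hsa-mir-514a-1 and hsa-mir-514b. They are members by number and not by position, and they are kept in the counts and given apart below. A hairpin had 1 guide in 10 cases, 2 guides in 14, 3 guides in 10 and 4 guides in 13.

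Mature sequences show how far the products overlap. RefSeq held a mature sequence for 46 of the 47 hairpins, in 80 entries that came to only 58 distinct sequences and 38 distinct seeds. The lines below give mature microRNAs of hairpins on which the results turn, 5′ to 3′, with the seed in capitals.
hsa-miR-522-5p: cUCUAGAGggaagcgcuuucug
hsa-miR-518f-5p: cUCUAGAGggaagcacuuucuc
hsa-miR-523-3p: gAACGCGCuucccuauagagggu
hsa-miR-519e-3p: aAGUGCCUccuuuuagaguguu
hsa-miR-520a-3p: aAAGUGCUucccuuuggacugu
hsa-miR-519a-3p: aAAGUGCAuccuuuuagagugu
hsa-miR-526b-3p: gAAAGUGCuuccuuuuagaggc
hsa-miR-520g-3p: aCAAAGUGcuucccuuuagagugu
hsa-miR-525-3p: gAAGGCGCuucccuuuagagcg
hsa-miR-1283: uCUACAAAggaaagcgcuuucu
hsa-miR-1323: uCAAAACUgaggggcauuuucu
hsa-miR-498-5p: uUUCAAGCcagggggcguuuuuc
hsa-miR-513c-5p: uUCUCAAGgaggugucguuuau
The first of these, hsa-miR-522-5p, is letter for letter the 5′ product of 6 measured hairpins: hsa-mir-518e, hsa-mir-519a-1, hsa-mir-519b, hsa-mir-519c, hsa-mir-522 and hsa-mir-523. Its seed UCUAGAG was shared by 11 hairpins, the largest seed group here. Among 3′ products, the seed AAAGCGC was shared by 6 hairpins (hsa-mir-518a to hsa-mir-518d and hsa-mir-526a-1), AAGUGCU by 5 (hsa-mir-520a to hsa-mir-520e) and AAGUGCA by 4 (hsa-mir-519a to hsa-mir-519c). The X-linked hsa-miR-513c-5p carries a seed that it shares with hsa-miR-514b-5p and with no chromosome 19 product in the table.

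Whole hairpins are shown for near-identical pairs, to show how little of a copy can be its own. In each line the bases that differ from the partner are in capitals.
MIR516A1: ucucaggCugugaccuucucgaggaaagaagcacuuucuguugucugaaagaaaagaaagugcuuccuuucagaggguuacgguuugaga
MIR516A2: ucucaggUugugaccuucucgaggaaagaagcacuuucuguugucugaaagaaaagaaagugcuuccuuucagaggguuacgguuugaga
MIR520G: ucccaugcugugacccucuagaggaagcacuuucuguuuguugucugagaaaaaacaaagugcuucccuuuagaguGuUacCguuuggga
MIR520H: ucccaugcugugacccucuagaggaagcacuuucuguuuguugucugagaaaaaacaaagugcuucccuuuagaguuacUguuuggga
The MIR516A hairpins lie on the plus strand at chr19:53756741-53756830 and chr19:53761133-53761222 (GRCh38.p14) and differ in 1 base. MIR520G, at chr19:53722166-53722255, and MIR520H, at chr19:53742512-53742599, also on the plus strand, differ by 3 edits. Each of these 4 hairpins had 1 guide. Over the 50 hairpins of the rule with a RefSeq hairpin sequence, the closest other hairpin of the rule was a median of 90.9% identical, and the lowest such value was 62.1%, for MIR1323.

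The number of guides per hairpin tended to rise with the number of candidate sites that no other hairpin held. Candidate sites, 20 bases followed by NGG on either strand, were listed in all 1560 hairpins of the RefSeq table. A site was called unique where no other hairpin held the same site letter for letter. Near-matches were not searched, so a unique site is not shown to be cut only once. Of the 50 hairpins, 10 had 0 unique sites, and 6 of these 10 had no guide in the data analysed here: MIR512-1, MIR512-2, MIR514A2, MIR514A3, MIR515-1 and MIR515-2. The 4 others, hsa-mir-514a-1, hsa-mir-517b, hsa-mir-520b and hsa-mir-520g, had 1 or 2 guides. The 13 hairpins with 1 to 2 unique sites had a median of 2 guides, and the 27 with 3 or more had a median of 3. Every hairpin with at least 1 unique site had a guide. Guides were fewer than unique sites in 23 hairpins and more in 10, where no hairpin had over 4 guides. MIR513C had 4 guides but only 3 candidate sites, so the list does not hold the site of every guide. Across the 50 hairpins, Pearson's r between unique sites and guides was 0.723, a description of how the library covers the array in which related hairpins share sequence. The candidate sites held by most hairpins are printed with the NGG in capitals, since a guide on one of them would match every copy listed.
site in MIR518E, MIR519B, MIR519C, MIR522 and MIR523: agaaagcgcuucccucuagaGGG
site in MIR518D, MIR518F, MIR526A1 and MIR526A2: agaaagugcuucccucuagaGGG
site in MIR516A1, MIR516A2, MIR516B1 and MIR516B2: aagaaagugcuuccuuucagAGG
The first is on the strand opposite to the hairpin and was in 5 hairpins, which together had 12 guides. Whether any guide uses a shared site was not analysed here, and the search covered hairpin sequence only, not the rest of the genome.

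Guides of the cluster were as well represented as the rest of the library. Whole reads per guide were recovered from the deposited values, and the 3 libraries held between 16547572 and 18805737 reads. The median of the 120 guides was 249 reads at day 0, 249.5 for DMSO and 229 for RTX, and that of all guides was 230, 251 and 232. They took 0.2027% of all reads at day 0 (exact 95% binomial interval 0.2006% to 0.2049%), 0.2033% in DMSO (0.2012% to 0.2053%) and 0.1915% in RTX (0.1895% to 0.1936%), while being 0.1907% of the guides. The intervals cover counting error only. The share in RTX lay below both others beyond counting error, but differences between cultures could not be measured. No guide of the cluster was lost from any library. The lowest count of each library came from guide 26777 of hsa-mir-519c, with 1 read at day 0, 17 for DMSO and 12 for RTX. That guide, the only one under the filter of 10 normalized reads at day 0, is left out of the ratios, which leaves 119.

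Each guide was described by a log2 ratio of the deposited normalized values, with 5 added to both, and centred on the median of all 62610 guides that passed the filter. A guide is called higher or lower here when it moved at least 2-fold, a log2 ratio of 1 in size. This is a limit of size and not a test. Guides are named by their library number.

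Relative to all guides, growth in DMSO left the cluster close to where it started. The median log2 ratio of DMSO over day 0 was -0.01 over the 119 guides, with an interquartile range from -0.28 to 0.26, against 0 over all guides by construction. Guides called higher numbered 1 of 119 (0.840%, with 2.32% of all guides), and guides called lower numbered 4 (3.36%, with 7.51% of all guides). Both shares lay below those of all guides. Among the 991 non-targeting guides that passed, which have no target in the genome, 3.53% were higher and 2.02% lower, around a median of 0.19. Set against that median instead, the cluster stood at -0.20, with 0 guides higher and 9 lower. On that scale 1.14% of all guides were higher and 10.6% lower. With equal library totals 1 was higher and 5 lower, where the shares of all guides were 2.12% and 7.85%.

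The lowest guide in DMSO was guide 26784 of hsa-mir-519e, whose 3′ product opens with AAGUGC, letters also found in the seeds of microRNAs of pluripotent cells. Its reads numbered 95 at day 0, 27 after DMSO and 126 after RTX. The log2 ratio of DMSO over day 0 was -1.79 (95% counting interval -2.65 to -1.34). The other 2 guides of this hairpin stood at 0.06 and 0.26, so the loss in DMSO was not shared within the hairpin. Guide 26834 of hsa-mir-523 had 148, 51 and 73 reads in the same order, a log2 ratio of -1.60, and its partner guide stood at -0.17. Guide 26853 of hsa-mir-526b had 53, 23 and 23 reads, with a log2 ratio of -1.19. Guide 26446 of hsa-mir-498, a hairpin whose seeds no other member shares, had 220, 119 and 198 reads, with a log2 ratio of -1.01. These 4 were all the guides called lower, and each was 1 guide of its hairpin. The single guide called higher, guide 22643 of hsa-mir-1283-1, had 202, 492 and 183 reads, a log2 ratio of 1.11 (counting interval 0.89 to 1.37). It stood alone in its hairpin as well, whose other guides lay at -0.37, 0.07 and 0.50.

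RTX against DMSO at day 14 asks whether a cut in the cluster changes growth in the drug. The median log2 ratio was -0.08, with an interquartile range from -0.44 to 0.32, and the non-targeting guides stood at -0.10. Guides called higher numbered 4 of 119 (3.36%, with 7.89% of all guides and 4.24% of the non-targeting guides). Guides called lower numbered 7 (5.88%, with 5.43% of all guides and 6.05% of the non-targeting guides). The lower share was near both backgrounds, and the higher share was under that of all guides. Set against the non-targeting guides the split was 4 higher and 3 lower, where 9.68% of all guides were higher and 4.24% lower. With equal library totals it was 3 higher and 8 lower, where 7.55% of all guides were higher and 5.72% lower.

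The highest guide in RTX over DMSO was again guide 26784 of hsa-mir-519e, with a log2 ratio of 2.16 (counting interval 1.75 to 3.02). The authors' deposited table calls this guide significant from 1 library per condition, whereas the count test given below called no guide of the cluster. Its 126 reads in RTX came against 27 in DMSO and 95 at day 0, and in RTX over day 0 its log2 ratio was 0.38. The other guides of the hairpin stood at -0.13 and -0.61. Guide 22818 of hsa-mir-1323 had 145 reads to begin with, 80 after DMSO and 204 after RTX, a log2 ratio of 1.43 of RTX over DMSO and 0.47 of RTX over day 0. Guide 26842 of hsa-mir-525 had 251, 153 and 330 reads, with 1.22 and 0.38 for the same ratios. In these 3 guides the DMSO library held the lowest of the 3 read counts. The 4th, guide 26642, is the only guide of the X-linked hsa-mir-514a-1, and its 51, 53 and 102 reads gave 1.01 over DMSO and 0.93 over day 0.

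The guides called lower in RTX over DMSO came from 6 hairpins. Guide 22643 of hsa-mir-1283-1, the guide that was highest in DMSO, was the lowest at -1.27 (counting interval -1.54 to -1.04). Guide 26770 of hsa-mir-519a-2 had 97, 159 and 61 reads, a log2 ratio of -1.18, and the other guide of that hairpin stood at -0.72. Guide 26706 of hsa-mir-518a-1 had 80, 138 and 53 reads and a log2 ratio of -1.17, while its partner stood at 0.83. The only guide of hsa-mir-518f, guide 26729, had 317, 351 and 148 reads, so that it was near its start in DMSO and low in RTX, with -1.08 over DMSO and -1.08 over day 0. The only guide of hsa-mir-520g, guide 26814, had 72, 121 and 50 reads and stood at -1.07 over DMSO. The remaining 2 belong to hsa-mir-522 and are the one case where more than 1 guide of a hairpin passed the limit. Guide 26828 had 110, 126 and 53 reads with a log2 ratio of -1.04, and guide 26830 had 129, 283 and 124 reads with -1.02. The first was low in RTX against both other libraries (-0.99 over day 0), and the second was high in DMSO (0.95 over day 0). The 3rd guide of hsa-mir-522, which held the most reads of these guides in every library, stood at 0.37.

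RTX over day 0 does not use the DMSO library at day 14. The median log2 ratio of the cluster was -0.07, with an interquartile range from -0.33 to 0.24, against 0.11 for the non-targeting guides. Guides called higher numbered 0 of 119 (3.18% of all guides), and guides called lower numbered 3 (2.52%, with 5.3% of all guides). Set against the non-targeting guides 0 were higher and 6 lower, where 2.27% of all guides were higher and 6.75% lower. With equal library totals 0 were higher and 5 lower, where the shares of all guides were 2.67% and 6.02%. The lowest was guide 26787 of hsa-mir-520a, with 437 reads before treatment, 258 after DMSO and 159 after RTX, and a log2 ratio of -1.44 (counting interval -1.74 to -1.20). It fell in both later libraries, by 0.91 in DMSO on the log2 scale, whereas the other guides of this hairpin stood at 0.19 and 0.79 in RTX over day 0. The others called lower were guide 26729 of hsa-mir-518f and guide 26853 of hsa-mir-526b, at -1.08 and -1.06. The latter was at 23 reads in both later libraries. Guide 26642 of hsa-mir-514a-1 was the highest at 0.93, and guide 26717 of hsa-mir-518c followed at 0.88 with 240, 435 and 447 reads.

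At the level of hairpins, none with at least 3 guides had all of them past the limit. Of the 47 hairpins, 22 had at least 3 guides that passed the filter. In none of these 22 were all guides at least 2-fold higher or all at least 2-fold lower, in any of the 3 comparisons. Among 19546 genes with at least 3 guides the shares were 0.379% higher and 0.0102% lower for RTX over DMSO, 0% and 0.547% for DMSO over day 0, and 0.087% and 0.138% for RTX over day 0. Genes and hairpins were not matched for their number of guides, on which such shares depend. The hairpin medians ranged from -1.02 to 0.39 for RTX over DMSO, from -0.55 to 0.35 for DMSO over day 0 and from -0.48 to 0.33 for RTX over day 0. Among the 22, only hsa-mir-522 had a median past the limit, at -1.02 in RTX over DMSO, where 0.798% of the 19546 genes had a median at least 2-fold lower and 2.67% at least 2-fold higher. The shares of those genes were 0.102% higher and 3.28% lower for DMSO over day 0 and 0.64% and 1.34% for RTX over day 0, with none of the 22 hairpins in either.

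At the low end of RTX over DMSO, hsa-mir-522 was followed by the X-linked hsa-mir-513c at -0.74 (guides from -0.997 to 0.21), then by hsa-mir-525 at -0.33 (-0.67 to 1.22), hsa-mir-498 at -0.27 (-0.52 to 0.85) and hsa-mir-1283-1 at -0.25 (-1.27 to 0.29). At the high end stood hsa-mir-518a-2 at 0.39 (-0.01 to 0.47), hsa-mir-520e at 0.32 (-0.37 to 0.54), hsa-mir-526a-2 at 0.29 (0.08 to 0.88), hsa-mir-521-1 at 0.27 (-0.49 to 0.35) and hsa-mir-520c at 0.19 (-0.24 to 0.47). The guide ranges of neighbours in this order overlap throughout, so the order itself is not resolved. In DMSO over day 0 the lowest hairpins were hsa-mir-518a-2 at -0.55, hsa-mir-518b at -0.41, hsa-mir-526b at -0.40, hsa-mir-526a-2 at -0.32 and hsa-mir-498 at -0.28. The highest there were hsa-mir-525 at 0.35, hsa-mir-520a at 0.32, hsa-mir-519d at 0.29, hsa-mir-1283-1 at 0.28 and hsa-mir-520f at 0.28. Both comparisons share the DMSO library, which enters them with opposite sign, and RTX over day 0 shares a library with each.

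A few hairpins had guides that pointed one way. All 4 guides of hsa-mir-498 lay below 0 in DMSO over day 0 (-1.01 to -0.08) and in RTX over day 0 (-0.76 to -0.15), and their summed reads were 1277 at day 0, 1148 in DMSO and 934 in RTX. In RTX over day 0 this hairpin had the second-lowest median, -0.45, after hsa-mir-513c at -0.48. All 4 guides of hsa-mir-519d and of hsa-mir-520f lay above 0 in RTX over day 0, with medians of 0.33 and 0.24. Summed reads of hsa-mir-519d were 1130, 1632 and 1327 in day 0, DMSO and RTX, and those of hsa-mir-520f were 1304, 1627 and 1539. In RTX over day 0, 2 of 22 hairpins had all guides above 0 and 2 had all below, where the shares among the 19546 genes were 13.7% and 13.6%, and neither share here was above that of the genes. In DMSO over day 0 the counts were 1 above, hsa-mir-513c, and 5 below (13.7% and 14.2% of those genes), so that hairpins with all guides below 0 were a larger share here than among the genes, a difference that was not tested. The 5 were hsa-mir-498, hsa-mir-518a-2, hsa-mir-520c, hsa-mir-526a-2 and hsa-mir-524. In RTX over DMSO the counts were 1 above, hsa-mir-526a-2, and 0 below (13.5% and 13% of those genes). Such shares depend on the number of guides per gene, and 13 of the 22 hairpins had 4 guides. The genes were not matched to the hairpins in that number, so their shares are only a rough background.

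Of the hairpins fixed by name, hsa-mir-1323 and hsa-mir-516a-1 were near 0. For hsa-mir-1323, whose mature form has a seed that no other member has, the median was -0.10 in RTX over DMSO, -0.06 in DMSO over day 0 and -0.11 in RTX over day 0 over 4 guides. The single guide of hsa-mir-516a-1 had 549, 581 and 588 reads, and that of its near-copy hsa-mir-516a-2 had 371, 432 and 504 reads. The log2 ratio of hsa-mir-516a-1 lay between -0.08 and 0.16 and that of hsa-mir-516a-2 between 0.06 and 0.43 in the 3 comparisons. The single guide of hsa-mir-520h had 290 reads at day 0 and 278 in RTX, a log2 ratio of 0.66 in DMSO over day 0 and -0.74 in RTX over DMSO. Its near-copy hsa-mir-520g had the same order of values, 0.56 and -1.07, from another guide. The hairpins hsa-mir-512-1, hsa-mir-515-1 and hsa-mir-517a, also fixed by name, were not analysed here because no guide against them was in the data.

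Medians of the larger seed groups lay between -0.43 and 0.20. The 24 guides of the 11 hairpins with the 5′ seed UCUAGAG had medians of 0.10 in RTX over DMSO, -0.15 in DMSO over day 0 and -0.10 in RTX over day 0. The 17 guides of the AAAGCGC group stood at 0.18, -0.16 and -0.08. The 14 guides of the AAGUGCU group, which holds hsa-mir-520a to hsa-mir-520e, stood at 0.03, 0.18 and 0.16. The 8 guides of the AAGUGCA group, hsa-mir-519a to hsa-mir-519c, stood at -0.43, 0.20 and -0.16. This was the lowest of the groups of at least 4 hairpins in RTX over DMSO, with guides from -1.18 to 0.35. The 6 guides of the hsa-mir-516 hairpins, seed GCUUCCU, stood at -0.04, 0.13 and 0.13. A hairpin with a 5′ and a 3′ product counts in 2 groups, so the groups share guides and no test of their difference was made.

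Guides were also read by the number of unique sites in the hairpin, which leaves out the guides of hsa-mir-498, hsa-mir-514b and hsa-mir-520f. The 6 guides against hairpins with 0 unique sites had a median of 0.17 in DMSO over day 0, and 0 of 6 were at least 2-fold lower. The 23 guides against hairpins with 1 to 2 unique sites stood at -0.01 with 0 lower, and the 78 guides against those with 3 or more stood at -0.03 with 3 lower (7.51% of all guides). In RTX over DMSO the medians in that order were -0.35, 0.03 and -0.08. There 1 of 6, 3 of 23 and 3 of 78 guides were lower (5.43% of all guides), and 1 of 6, 0 of 23 and 3 of 78 were higher (7.89% of all guides). In RTX over day 0 the medians were -0.13, -0.07 and -0.07. With 6 guides the first class is thin. The sites of the guides themselves were not analysed here, so these classes describe the hairpins and not the number of cuts.

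The 15 X-linked guides were not tested against the others. Their medians were -0.04 in RTX over DMSO, 0.09 in DMSO over day 0 and -0.23 in RTX over day 0, and the chromosome 19 guides stood at -0.08, -0.04 and -0.07. Guides of the X-linked hsa-mir-513b ranged from -0.56 to 0.13 in RTX over DMSO and those of hsa-mir-514b from -0.49 to 0.37. The 4 guides of hsa-mir-513c stood at 0.21, -0.50, -0.97 and -0.997 in RTX over DMSO, the last 2 just inside the limit. Those 2 had only 84 and 23 reads at day 0, against 484 and 313 for the other 2.

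Log2 ratios of the cluster had a smaller SD than those of other microRNA guides. For the 119 guides it was 0.57 in RTX over DMSO, 0.49 in DMSO over day 0 and 0.45 in RTX over day 0. Over the 6259 other microRNA guides it was 0.74, 0.68 and 0.63, and over the non-targeting guides 0.64, 0.53 and 0.56. Other microRNA guides had a median of 198 reads at day 0, against 249 here. Among guides with at least 200 reads at day 0, the SD was 0.47, 0.42 and 0.41 for the 77 guides of the cluster and 0.52, 0.47 and 0.44 for 3129 other microRNA guides. For 533 non-targeting guides of that depth it was 0.45, 0.38 and 0.40, below the cluster in each comparison, where over all depths it was above. Among those with fewer, it was 0.72, 0.59 and 0.52 for 42 guides of the cluster, 0.91, 0.84 and 0.77 for 3130 other microRNA guides and 0.81, 0.66 and 0.70 for 458 non-targeting guides. The gap to other microRNA guides was thus smaller among the deeper guides, and no test of it was made. Of the 77 deeper guides, 1 was at least 2-fold lower in DMSO over day 0 (1.30%, with 3.20% of the other microRNA guides, 4.59% of all guides and 0.188% of the non-targeting guides). In the same comparison 1 of 77 was higher (1.30%, with 0.352%, 0.417% and 0.375% in the same order).

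Another large microRNA array, the imprinted cluster on chromosome 14, had medians near 0 too. Its list held 44 hairpins and 157 guides. RefSeq places 43 of these hairpins on that chromosome and 1 on chromosome 3. Over its 155 guides past the filter the medians were -0.05 in RTX over DMSO, 0.09 in DMSO over day 0 and 0.00 in RTX over day 0, with SDs of 0.55, 0.51 and 0.52. In DMSO over day 0, 0.645% of these guides were higher and 1.94% lower. Neither array was tested against the other.

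Other hairpins with AAGUGC-type seeds had list medians near 0. The embryonic hairpins hsa-mir-371a to hsa-mir-373, which lie beside the cluster on chromosome 19, and hsa-mir-302a to hsa-mir-302d on chromosome 4 had medians of 0.04, 0.02 and 0.09 in RTX over DMSO, DMSO over day 0 and RTX over day 0 over 25 guides. In RTX over day 0, 2 of these 25 guides were at least 2-fold lower (8.0%, with 5.3% of all guides) and 0 higher, and 1 was lower in each of the other comparisons. The exception was hsa-mir-302b, with a median of -1.06 over 4 guides in RTX over day 0 (-2.76 to 0.38) and a lowest guide at -2.84 in DMSO over day 0. The 21 guides of hsa-mir-17, hsa-mir-20a, hsa-mir-20b, hsa-mir-93, hsa-mir-106a and hsa-mir-106b, a broadly expressed family known to favour proliferation, stood at 0.02, 0.08 and 0.08, with 0 guides past the limit in either comparison with day 0 and 1 lower in RTX over DMSO.

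Coding genes on either side of the cluster give the local background. The 10 nearest coding genes before it in RefSeq order with guides in the tables run from ZNF347 to the homeobox gene DPRX, and the 10 after it from the inflammasome gene NLRP12 to the complex I subunit NDUFA3. Their 28 and 30 guides had medians of 0.11 and 0.21 in DMSO over day 0 and 0.07 and -0.05 in RTX over DMSO. Both flanks were thus on the positive side in DMSO over day 0, where the chromosome 19 guides of the cluster stood at -0.04. The non-targeting guides stood at 0.19 in that comparison. In RTX over day 0 the flanks stood at 0.22 and 0.08, and the chromosome 19 guides at -0.07. No test was made of these gaps.

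Guides against the proteins that make and load microRNAs had a median below 0 after growth in DMSO. Over 30 guides against DROSHA, DGCR8, DICER1, TARBP2, XPO5, RAN and AGO1 to AGO4, the median was -0.29 in DMSO over day 0 and -0.39 in RTX over day 0. In DMSO over day 0, 6 of 30 guides were at least 2-fold lower (7.51% of all guides) and 0 were higher (2.32% of all guides). DROSHA, the nuclear nuclease that releases the hairpin, had a median of -1.32 there with guides from -1.46 to -0.26. XPO5, which exports hairpins from the nucleus, stood at -1.07 (-1.46 to -0.80). RAN, the GTPase of nuclear transport, stood at -0.75, and DICER1 at -0.67 with a range of -1.01 to 0.23. AGO2, the slicing Argonaute, stood at 0.40. The rest of the list stood at 0.16 (AGO4), 0.13 (TARBP2), 0.04 (DGCR8), -0.09 (AGO3) and -0.39 (AGO1). The guides of DGCR8 ranged from -2.17 to 0.08. Low medians were thus not shared by the whole list. In RTX over DMSO the list's median was 0.09, with 1 of 30 guides higher and 3 lower (7.89% and 5.43% of all guides). The 3 DROSHA guides lay between 0.56 and 0.89 there, against the DMSO library in which they were low. In RTX over day 0 the DROSHA median was -0.42 (-0.82 to 0.30). Lower there were DICER1 at -0.81, XPO5 at -0.76, DGCR8 at -0.60 (-1.87 to -0.21), AGO3 at -0.45 and RAN at -0.43. TARBP2 stood at -0.01, AGO4 at 0.07, AGO1 at 0.33 and AGO2 at 0.64. Summed DROSHA reads were 682 at day 0, 433 in DMSO and 610 in RTX.

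Significance in the deposited and recomputed tests differed. In the authors' deposited tables, at an FDR under 0.05, 9 of 120 guides were higher and 4 lower in RTX over DMSO (13.9% and 4.29% of all guides). The authors' deposited table for DMSO over day 0 had 9 higher and 2 lower (9.77% and 5.84%), and that for RTX over day 0 had 8 and 4 (11% and 4.04%). The cluster's shares were 7.5% and 3.33%, 7.5% and 1.67%, and 6.67% and 3.33% in the same order, each below that of all guides. The lower shares in RTX over DMSO and RTX over day 0 were near those of all guides. Non-targeting guides were called at 8.3% and 5.3%, 17.6% and 0.9%, and 13.5% and 1.5%. The cluster's lower shares in both comparisons with day 0 thus lay above those of the non-targeting guides. A count test on the whole reads, edgeR's exact test with Benjamini-Hochberg adjustment, which compares libraries and not conditions, called 0 guides of the cluster in every comparison. In RTX over DMSO and in DMSO over day 0 the cluster's lowest adjusted value lay just above the 0.05 limit. The result in those 2 comparisons thus depends on where the limit is set. The count test called 0.922% of all guides higher and 0.391% lower in RTX over DMSO, 0.129% and 2.07% in DMSO over day 0, and 0.195% and 0.664% in RTX over day 0. At an unadjusted p under 0.05 it had 2 higher and 1 lower in RTX over DMSO (1.68% and 0.84% of the cluster's guides, 4.87% and 2.96% of all guides). In DMSO over day 0 it had 1 and 3 (0.84% and 2.52%, with 1.79% and 6.66% of all guides), and in RTX over day 0 it had 0 and 2 (0% and 1.68%, with 2.49% and 4.23% of all guides).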

How the data were processed

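Guide inserts of 3 libraries were amplified in 2 rounds of PCR before Illumina sequencing, per the labels' protocols. MAGeCK 0.5.7 and hg19 are named in the submitters' processing notes. Read matching is not described in these sources. Per the file headers, the authors deposited a normalized signal per guide with p-values adjusted as an FDR. Each column's values are multiples of 1 step, from which whole reads were recovered: within a tolerance of 0.1 at least 99.9968% of each column came out whole. Log2 ratios used a pseudocount of 5, which understates changes of guides with few reads, and at least 10 normalized reads at day 0.

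Members and lists were chosen with earlier results of these data known. Hairpins were ranked where at least 3 guides passed. Named were the 5 highest and 5 lowest hairpins and guides of each comparison and 9 hairpins fixed by name. Not every named item is printed. The count test was edgeR 4.0.16 (R 4.3.3), an exact test with 1 dispersion from the non-targeting guides. It compares 2 libraries and not conditions. It was tested on simulated data, with changes larger than any log2 ratio of the cluster. Its power at the sizes seen here was not measured, so calling no guide does not show that none changed. Counting intervals are exact 95% binomial intervals of read pairs. Sequences are from RefSeq (GRCh38.p14), and since the authors' build is hg19 its coordinates apply only to the printed hairpins.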

Additional observations from a re-analysis of the deposited data

How the results depend on the processing

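Of 21 alternative medians, 20 stayed within the main median's exact binomial interval, and of 54 alternative counts, 34 stayed within 1.5 times the main count. The interval was -0.17 to 0.12 in RTX over DMSO, -0.12 to 0.09 in DMSO over day 0 and -0.19 to 0.04 in RTX over day 0. It treats guides as independent draws, though many target near-identical hairpins and all come from 1 pair of libraries. Small shifts stay inside it by its width, so the 20 do not measure how stable the medians are. The causes were not tested beyond what each setting does by construction. Scaling to the non-targeting guides, which moves the median of all guides by 0.10, -0.19 and -0.11 in RTX over DMSO, DMSO over day 0 and RTX over day 0, gave a cluster median of -0.20 in DMSO over day 0 (-0.01 before) and 0.02 in RTX over DMSO. It gave 3 guides lower in RTX over DMSO (7 before), 0 higher and 9 lower in DMSO over day 0 (1 and 4 before) and 6 lower in RTX over day 0 (3 before). Equal library totals gave 5 lower in RTX over day 0. A pseudocount of 20 gave 4 lower in RTX over DMSO and 2 lower in DMSO over day 0, and a pseudocount of 1 gave 5 lower in RTX over day 0. With no filter, guide 26777 of hsa-mir-519c raised the higher counts to 2 in DMSO over day 0 and 1 in RTX over day 0.

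The authors' FDR under 0.05 gave 9 higher and 4 lower in RTX over DMSO, 9 and 2 in DMSO over day 0, and 8 higher in RTX over day 0, per the authors' deposited tables. The edgeR exact test called 0 in each direction of each comparison, with 0 to 3 guides per direction at an unadjusted p under 0.05. Leaving out the X-linked guides moved no count by over 1.5 times. No paired analysis was possible because each condition is 1 library. Depth limits what can be seen: guides with few reads had the wider spread, and non-targeting guides themselves had an SD of 0.53 to 0.64.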

Other observations

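Guide 26777 of hsa-mir-519c had 1 read at day 0, 17 in DMSO and 12 in RTX, and was outside every ratio above for that reason. The other 2 guides of this hairpin had 220, 190 and 221 reads and 113, 168 and 94 reads.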
